A study of Mus musculus with 24 samples.

Results

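Hyaluronan is the long sugar polymer of the extracellular matrix, and 8 of its genes were followed in the left ventricle of mice with ANG II-induced hypertensive-LVH. The genes were chosen by name for their place in the life of the polymer, with earlier results of these data known. They were the synthases Has1, Has2 and Has3, the hyaluronidases Hyal1 and Hyal2, and the binding proteins Cd44, Tnfaip6 and Stab1. All 8 were among the 14912 genes of the deposited table, and all 8 passed the filter of a mean of at least 0.1 FPKM. The hypertensive-LVH group held 12 mice that received ANG II (1500 ng/kg/min) over 7 days from osmotic mini-pumps under the skin, and the control group held 12 mice infused with saline in the same way. Mice of both groups were male wild-type C57BL/6J according to the methods of the study, which give no age, and their hearts were flushed with saline before the left ventricle was taken. RNA selected with oligo(dT) was sequenced from whole ventricles, so more cells of a type and more RNA per cell cannot be told apart for any gene below.

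Hyaluronan is extruded at the plasma membrane by the HAS enzymes from the UDP-sugars UDP-glucuronic acid and UDP-N-acetylglucosamine. It is cut by hyaluronidases, with HYAL2 held at the cell surface by a lipid anchor and HYAL1 working in lysosomes, and the fragments are then trimmed by lysosomal exoglycosidases. Cells read the polymer through receptors, of which CD44 is the main one on leukocytes and fibroblasts, and the secreted protein TSG-6, the product of Tnfaip6, links protein chains of the inter-alpha-inhibitor family to it. Stab1 encodes stabilin-1, a scavenger receptor of macrophages and some endothelial cells. In the heart, hyaluronan is a component of the interstitial matrix laid down by fibroblasts and other stromal cells, and its turnover is known to rise in inflamed and fibrosing tissue.

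The deposited unit was FPKM, the fragments of a gene divided by its transcript length and by the mapped fragments of the sample. FPKM is a level per length, so the genes can be set in order of level. The values had been adjusted after that step, since 2741 of 357888 were negative. Exact ties between samples of a group separated each group into 4 triplets (samples 1 to 3, 4 to 6, 7 to 9 and 10 to 12). Pairs from the same triplet had 215 to 541 tied genes and pairs across triplets of a group had 0. Values of the 8 genes shared a common step in hypertensive-LVH and control triplets of the same numbers (8 of 8 genes for each of the 4) and in triplets of different numbers for 0 of 8 genes, so same-numbered triplets were joined into 4 sets of 3 and 3 mice. Of the 192 values of the 8 genes, 1 was negative (Has1 in hypertensive-LVH sample 4). The sum of all values was 460715 to 515185 in the hypertensive-LVH samples and 482319 to 567727 in the control samples. The number of fragments behind a value is unknown. The extraction protocol in the labels speaks of CRC cells, whereas 6 cardiomyocyte markers reached a summed level of 29300 to 49390 FPKM in the 24 samples.

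Cd44 and Tnfaip6 were about doubled in the hypertensive-LVH group, Hyal2 was moderately higher and Has3 was lower. Mean Cd44 was 9.38 ± 2.48 FPKM in the hypertensive-LVH group against 4.63 ± 1.81 in the control group (SD, n = 12 each). With limma over all 14026 genes tested, 4 of the 8 genes passed an adjusted p of 0.05, 3 of them higher and 1 lower. Across all genes tested, 33.5% passed, 20.9% higher and 12.6% lower. Cd44 and Tnfaip6 also passed the study's threshold for differentially expressed genes (DEGs), an absolute log2 fold change over 0.5, so that 2 of the 8 genes were DEGs with higher values and 0 with lower values. Of all genes tested 5.92% were DEGs, 4.52% higher and 1.4% lower. With a pseudocount of 0.1 in place of 1, Has3 was a DEG as well (log2 fold change -0.56; limma, adjusted p = 0.00482). A log2 fold change here is a difference of mean log2(FPKM + 1), which understates the change of the low genes. The median log2 fold change over all genes tested was 0.05.

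**Figure D1:**
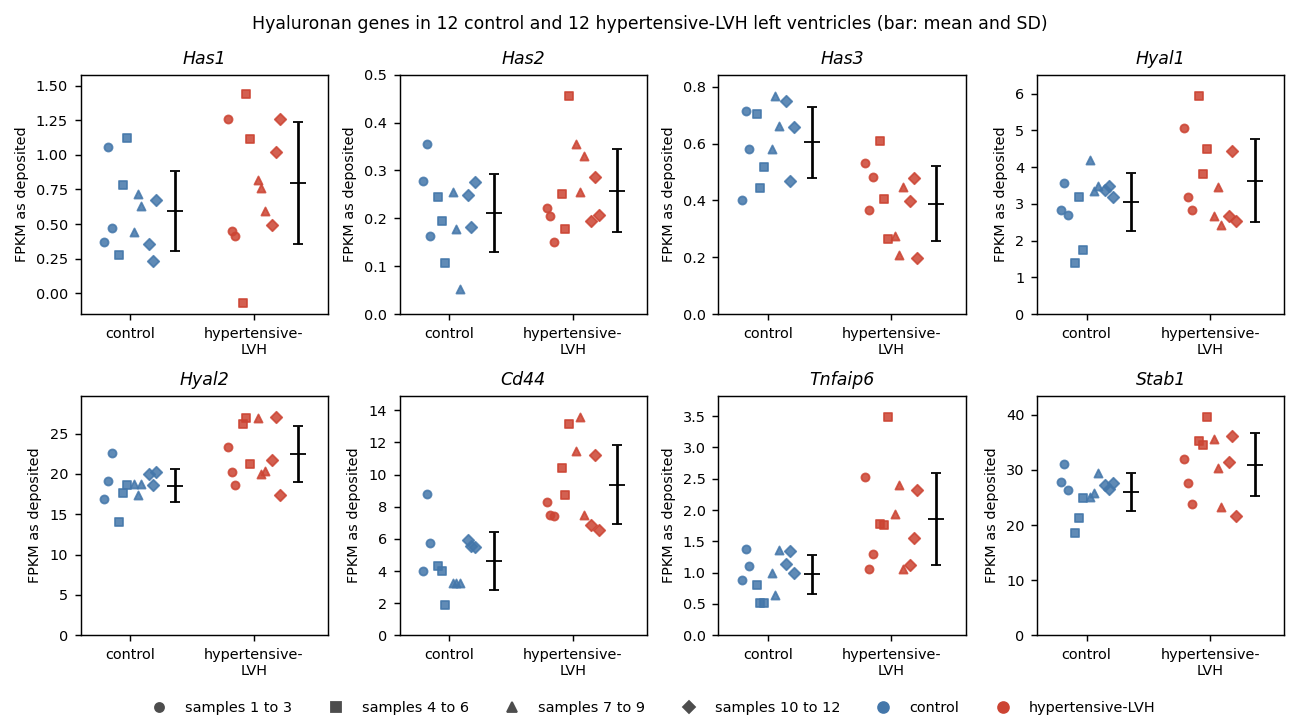
Level of each of the 8 genes in FPKM as deposited (y axes, own scale for each gene) in the 12 control and 12 hypertensive-LVH samples, with a marker shape for each of the 4 sets and a bar for the mean and SD. All 12 hypertensive-LVH samples lie above the control median for Cd44 and Tnfaip6, and all 12 lie below it for Has3.

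The order of the levels was almost the same in both groups. In the hypertensive-LVH group it ran from Stab1 (mean 31.0 FPKM) through Hyal2 (22.5), Cd44 (9.38), Hyal1 (3.63), Tnfaip6 (1.86), Has1 (0.795) and Has3 (0.389) to Has2 (0.257). Each gene from Stab1 down to Tnfaip6 was above the next in all 12 hypertensive-LVH samples, while Has1 exceeded Has3 in 10 and Has3 exceeded Has2 in 8. In the control group Has3 (0.604 FPKM) and Has1 (0.595) were level, with Has3 higher in 8 of 12 samples, and Cd44 exceeded Hyal1 in 9 of 12. Among all genes tested the mean level of Stab1 stood at percentile 82.0, that of Hyal2 at 76.0 and that of Cd44 at 50.1. The synthases stood at the other end, at percentile 14.9 for Has1, 12.0 for Has3 and 6.11 for Has2.

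Of the synthases, Has3 changed and the other two did not pass the test. Has3, whose enzyme makes shorter hyaluronan chains than HAS1 and HAS2 in cultured cells, lies on chromosome 8 from 106870242 to 106884566 on the plus strand (GRCm38, the build of all positions given). Its level in the control samples ran from 0.401 to 0.766 FPKM with a median of 0.621, and in the hypertensive-LVH samples from 0.197 to 0.611 with a median of 0.402. The groups overlapped, but 6 hypertensive-LVH samples lay below the lowest control sample and 0 lay above the control median. Mean Has3 fell from 0.604 ± 0.124 to 0.389 ± 0.131 FPKM (SD, n = 12 each), and the log2 fold change was -0.21 with a standard error (SE) of 0.05 (limma, adjusted p = 0.00347). With labels exchanged within the 4 sets, the exact two-sided permutation test of the difference in mean FPKM gave p = 0.00158. On the values before the adjustment, described below, the same permutation test gave p = 0.0039. Without samples 7 to 9 the log2 fold change of Has3 was -0.16 (limma, adjusted p = 0.0535). In GENCODE, 352 exon bases of Has3 (5.52%) are shared with Chtf8 on the opposite strand, and the strand setting of the counting is not given in the sources used here.

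Has2, the main synthase of the developing heart, is on chromosome 15 from 56665627 to 56694539 (minus strand). It was the lowest of the 8 genes, with 0.0519 to 0.355 FPKM (median 0.220) in control samples and 0.152 to 0.455 (median 0.236) in hypertensive-LVH samples. These ranges overlapped, with 2 hypertensive-LVH samples above the highest control sample and 7 of 12 above the control median. The log2 fold change of Has2 was 0.05 ± 0.04 (SE; limma, adjusted p = 0.323). Has1 is on chromosome 17 from 17843323 to 17855205 (minus strand) and encodes the least active of the synthases. Control samples held 0.234 to 1.12 FPKM of Has1 (median 0.551), and hypertensive-LVH samples -0.0685 to 1.44 (median 0.787). The hypertensive-LVH samples spread over a wider range, with 3 above the highest control sample. The 1 below the lowest control sample was the negative value of sample 4, and the next lowest hypertensive-LVH value was 0.414 FPKM. Has1 had a log2 fold change of 0.15 ± 0.12 (SE; limma, adjusted p = 0.338). Summed over the 3 synthases, the level was 1.44 ± 0.416 FPKM in the hypertensive-LVH group and 1.41 ± 0.334 in the control group (SD, n = 12 each).

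The hyaluronidase genes lie side by side on the plus strand of chromosome 9, Hyal2 from 107567945 to 107572779 and Hyal1 from 107576927 to 107581710, with 4147 bases between them. Hyal2, which makes the cut at the cell surface, was at 14.0 to 22.5 FPKM (median 18.7) in control samples and at 17.4 to 27.0 (median 21.5) in hypertensive-LVH samples. Of the 12 hypertensive-LVH samples, 10 exceeded the control median and 5 exceeded the highest control sample. Hyal2 rose from a mean of 18.6 ± 2.07 to 22.5 ± 3.48 FPKM (SD, n = 12 each), a log2 fold change of 0.26 ± 0.07 (SE; limma, adjusted p = 0.00983; exact permutation within sets, p = 0.00509). Without samples 4 to 6 the log2 fold change of Hyal2 was 0.16 (limma, adjusted p = 0.144) and the exact permutation p was 0.0745. In that limma fit on fewer mice 8.4% of all genes tested passed as higher, against 20.9% with all samples. Why the call of Hyal2 was lost was not tested.

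Hyal1, the lysosomal enzyme, was at 1.39 to 4.21 FPKM (median 3.27) in control samples and at 2.44 to 5.93 (median 3.32) in hypertensive-LVH samples. The medians were close, but both ends lay higher in the hypertensive-LVH group, with 4 of its samples above the highest control sample and its lowest sample above the lowest control sample. Its log2 fold change was 0.19 ± 0.13 (SE; limma, adjusted p = 0.258). Values of Hyal1 are uncertain, because 1920 of its 3777 exon bases (50.8%) belong also to Naa80 on the same strand, and 159 (4.21%) to Hyal3. The ratio of Hyal2 to Hyal1 was 6.58 ± 1.67 in the hypertensive-LVH group and 6.56 ± 2.02 in the control group (SD, n = 12 each). It ran from 4.41 to 10.0 and from 4.44 to 10.7 in these groups. The means pool sets that differed. In samples 4 to 6 Hyal1 rose more than Hyal2 (log2 fold change 0.91 against 0.54). In samples 7 to 9 Hyal1 was lower (-0.28) and Hyal2 higher (0.27), so the near-equal means do not show a constant ratio.

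Among the binding proteins, Cd44 had the largest log2 fold change of the 8 genes. Cd44 covers chromosome 2 from 102811141 to 102901665 on the minus strand and encodes the receptor through which leukocytes and fibroblasts hold and take up hyaluronan. Control samples held 1.86 to 8.80 FPKM (median 4.16) and hypertensive-LVH samples 6.57 to 13.6 (median 8.51). Every hypertensive-LVH sample was above the control median, and 5 were above the highest control sample, which was control sample 2. The ratio of the means was 2.03 and the log2 fold change 0.91 ± 0.16 (SE; limma, adjusted p = 0.000112; exact permutation within sets, p = 0.000188). Exon variants of Cd44 could not be separated, since the table holds 1 value per gene.

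Tnfaip6, also on chromosome 2 but from 52038009 to 52056686 on the plus strand, encodes TSG-6, which is induced by inflammatory cytokines in many stromal cells. It ran from 0.508 to 1.37 FPKM (median 0.996) in control samples and from 1.05 to 3.48 (median 1.77) in hypertensive-LVH samples. All 12 hypertensive-LVH samples were above the control median and 8 were above the highest control sample. Mean Tnfaip6 rose from 0.971 ± 0.311 to 1.86 ± 0.729 FPKM (SD, n = 12 each), a ratio of 1.91, with a log2 fold change of 0.51 ± 0.12 (SE; limma, adjusted p = 0.00176; exact permutation within sets, p = 0.0011). The log2 fold change was close to the DEG threshold of 0.5. It stayed over that threshold in 17 of the 24 fits that left out 1 mouse, and was 0.40 after quantile normalization and 0.34 without samples 4 to 6, with an adjusted p under 0.05 in each of these fits.

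Stab1 is on chromosome 14 from 31139013 to 31168641 (minus strand). It was the most abundant of the 8 genes, at 18.5 to 31.0 FPKM (median 26.5) in control samples and 21.7 to 39.5 (median 31.8) in hypertensive-LVH samples. The groups overlapped, with 7 hypertensive-LVH samples above the highest control sample and 3 below the control median. The log2 fold change of 0.23 ± 0.09 (SE) did not pass (limma, adjusted p = 0.0523), while the exact permutation test within sets gave p = 0.0272. Leaving out hypertensive-LVH sample 12 alone brought the adjusted p of Stab1 to 0.0163 (log2 fold change 0.28), whereas without samples 4 to 6 the permutation p was 0.415 for a difference of 1.69 FPKM.

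The upstream sequences of Cd44 and Tnfaip6 are shown because these are the DEGs among the 8 genes, and a reader can set the stretch before each gene beside its levels. They come from the RefSeq table of GRCm38.p6, which held 6 of the 8 genes, and are written in the direction of the gene up to the first exon in GENCODE, with motif matches in capitals. The Cd44 stretch is chr2:102901666-102901915 (minus strand, 250 bases, 56.4% G or C). The Tnfaip6 stretch is chr2:52037863-52038008 (plus strand, 146 bases, 44.5% G or C).
Cd44: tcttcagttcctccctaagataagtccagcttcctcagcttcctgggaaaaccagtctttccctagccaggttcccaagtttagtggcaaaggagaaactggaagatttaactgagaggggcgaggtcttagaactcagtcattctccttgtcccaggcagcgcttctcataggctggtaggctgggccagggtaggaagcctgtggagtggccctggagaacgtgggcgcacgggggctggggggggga
Tnfaip6: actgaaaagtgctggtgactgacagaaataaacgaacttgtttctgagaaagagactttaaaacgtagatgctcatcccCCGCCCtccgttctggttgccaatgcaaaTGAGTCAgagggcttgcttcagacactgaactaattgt
The motifs searched on both strands were the AP-1 site TGANTCA, the TATA box TATAAA, the GC box GGGCGG, the kappa B motif and the TEAD site GGAATG, where N is any base. Tnfaip6 held an AP-1 match at position -142 from its RefSeq start and a GC box match on the other strand at position -171. A TEAD match at position -8 lies in its first exon in GENCODE, outside the printed stretch. The AP-1 letters occur in 6.75% and the GC box letters in 32.7% of the 250-base stretches before the start in the 32851 entries of the RefSeq table. The Cd44 stretch held no match to these letters. These matches do not overlap each other, and they describe letters and not bound sites.

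The wider pathway was described from 3 lists of hyaluronan genes. In the list of synthesis and sugar precursors, 10 genes were tested, of which 2 passed as higher and 1 as lower, with a median log2 fold change of 0.13 against 0.05 over all genes. These shares were near those of all genes tested, of which 20.9% passed as higher and 12.6% as lower. The 2 were Ugdh, the enzyme that makes UDP-glucuronic acid, at 0.39 ± 0.12 (adjusted p = 0.0114), and Ugp2, which makes the UDP-glucose before it, at 0.21 ± 0.07 (adjusted p = 0.0241; log2 fold change, SE, limma). Has3 was the gene that fell. Without samples 4 to 6, 0 of the 10 genes passed as higher by limma and Has3 alone passed as lower, and Ugdh was at 0.29 (adjusted p = 0.0928) and Ugp2 at 0.16 (adjusted p = 0.197). In that fit 20.1% of all genes tested passed, 8.4% of all as higher.

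In the breakdown list, 6 of 11 genes were in the table, and 4 of the 6 passed as higher and 0 as lower (median log2 fold change 0.26), beside 20.9% and 12.6% of all genes tested. Beside Hyal2 these were the lysosomal exoglycosidase genes Gusb (0.46 ± 0.11, adjusted p = 0.00199) and Hexa (0.42 ± 0.09, adjusted p = 0.0016), and Cemip, which encodes a hyaluronan-binding protein needed for its depolymerization in fibroblasts (0.26 ± 0.08, adjusted p = 0.0119; log2 fold change, SE, limma). Gusb and Hexa also act on other sugar chains, and 3 of the Cemip values were negative. Without samples 4 to 6, Hexa alone of the 6 genes passed (0.28, adjusted p = 0.0395), beside 20.1% of all genes, and Gusb (0.26, adjusted p = 0.0638) and Cemip (0.13, adjusted p = 0.226) lost their calls in this limma fit as Hyal2 did.

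In the list of binding and cross-linking genes, 20 of 26 were tested, with 12 called higher, 0 called lower and a median log2 fold change of 0.34, beside 20.9% of all genes called higher. The calls include the low genes Acan (control mean 0.110 FPKM, 3 negative values), Itih2 (0.431, 2 negative) and Itih3 (0.167, 3 negative). The 3 DEGs were Cd44, Tnfaip6 and Layn, which encodes the hyaluronan receptor layilin (5.07 ± 1.54 against 3.27 ± 1.20 FPKM, SD, n = 12 each; log2 fold change 0.52 ± 0.15, SE; limma, adjusted p = 0.0115). The lymphatic and macrophage receptor Lyve1 (0.48 ± 0.14, adjusted p = 0.00928) and the matrix proteoglycan Vcan (0.42 ± 0.14, adjusted p = 0.0207; log2 fold change, SE, limma) were also higher. Stab2, the endocytic receptor related to Stab1, was at 0.201 ± 0.0720 FPKM in the hypertensive-LVH group and 0.211 ± 0.0639 in the control group (limma, adjusted p = 0.813). Without samples 4 to 6, 6 of the 20 genes passed as higher, beside 8.4% of all genes tested. Of the 12 calls 5 remained, and Ptx3 (0.61, adjusted p = 0.00638), the gene of pentraxin-3, was added. In that limma fit Layn fell to 0.20 (adjusted p = 0.261) and Vcan to 0.16 (adjusted p = 0.242), so neither passed, while Lyve1 passed at 0.46 (adjusted p = 0.0247).

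**Figure D2:**
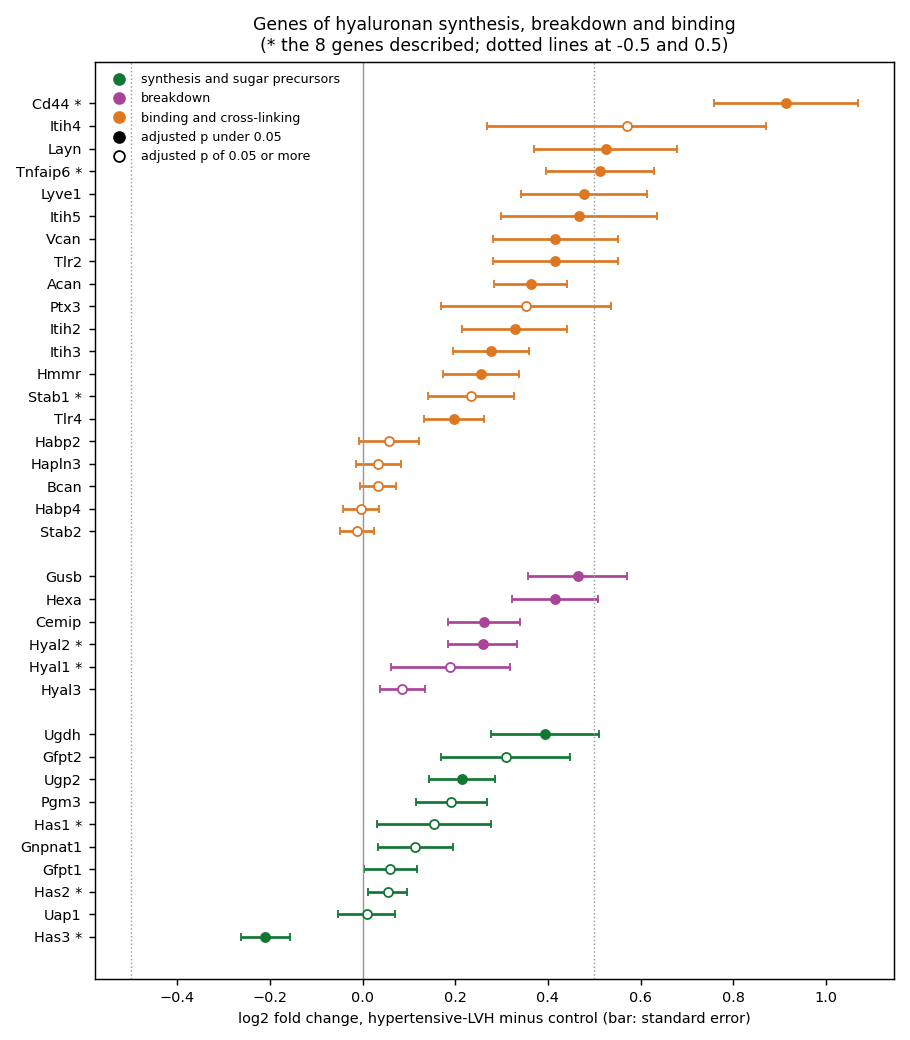
Log2 fold change of hypertensive-LVH minus control on the log2(FPKM + 1) scale (x axis) with its SE for each tested gene of the hyaluronan lists (y axis), filled where the adjusted p was under 0.05. Cd44 lies highest at 0.91, Has3 is the only filled point below 0, and all 6 breakdown genes lie above 0, as do 63.8% of all genes tested.

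A further list held partners of CD44, and 5 of its 9 genes passed as higher and 0 as lower, beside 20.9% and 12.6% of all genes tested. Its 3 DEGs were Spp1, Mmp14 and Msn. Spp1 encodes the CD44 ligand osteopontin (1.58 ± 0.51, adjusted p = 0.0195, with 3 negative values). Mmp14 encodes a membrane protease that sheds CD44 (1.09 ± 0.24, adjusted p = 0.00121), and Msn encodes moesin, which ties CD44 to the actin cortex (0.57 ± 0.08, adjusted p = 8.81e-06; log2 fold change, SE, limma). Without samples 4 to 6, 2 of the 9 genes passed as higher, beside 8.4% of all genes. They were Msn (0.48, adjusted p = 0.00106) and Mmp14, whose log2 fold change dropped to 0.54 (adjusted p = 0.0143), whereas Spp1 did not pass (1.19, adjusted p = 0.19).

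The size of the difference was not the same in the 4 sets of mice. From samples 1 to 3 to samples 10 to 12, the log2 fold changes of Cd44 by set were 0.33, 1.46, 1.44 and 0.43. Its groups did not overlap in the last 3 of these sets, where 47.6%, 27.0% and 21.0% of all genes did not overlap either. Within single sets, limma on 3 and 3 mice gave Cd44 an adjusted p of 0.00371 in samples 4 to 6 and 0.00623 in samples 7 to 9, and these sets called 27.2% and 4.9% of all genes. Tnfaip6 was higher in all 4 sets, by 0.27, 1.02, 0.47 and 0.29 on the log2 scale in the same order. Has3 was lower in all 4, with log2 fold changes of -0.10, -0.13, -0.35 and -0.26, and its groups did not overlap in samples 7 to 9.

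Hyal2 had log2 fold changes of 0.09, 0.54, 0.27 and 0.14 in the sets in that order, and Stab1 of -0.03, 0.74, 0.13 and 0.10. Samples 4 to 6 gave the largest value for both. In that set alone, limma called 27.2% of all genes. Among these limma calls were Stab1 (adjusted p = 0.00324), Tnfaip6 (0.00652), Hyal1 (0.0187) and Hyal2 (0.0196) in addition to Cd44. In samples 1 to 3, 7 to 9 and 10 to 12 limma called 0.0%, 4.9% and 0.279% of all genes. Stab1, Tnfaip6, Hyal1 and Hyal2 were not among them. For Hyal1 the log2 fold changes were 0.20, 0.91, -0.28 and -0.07, so the direction differed between sets. A limma test of the group by set interaction passed for Hyal1 (F = 6.31, adjusted p = 0.048), with 7.49% of all genes passing. Cd44 had an adjusted p of 0.0506 in the same limma test and Stab1 of 0.0988, and the other genes ranged from 0.281 to 0.798. Has1 (0.05, 0.03, 0.11 and 0.43) and Has2 (-0.08, 0.13, 0.18 and -0.01) had adjusted p values of 0.344 or more in each set by limma.

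The adjustment of the values also entered these differences. The spacing of the values within a set allowed the differences within sets to be recovered as they stood before the adjustment, although not the offset between sets. The recovery assumed an adjustment that kept a group difference common to the sets, and this fitted all 8 genes. Group labels thus entered the deposited values, so p values from them, by limma or by exchanging labels, are approximate. Before the adjustment the Cd44 groups differed by 0.09, 7.30, 7.15 and 2.65 FPKM in the 4 sets in order, so that samples 1 to 3 showed almost none of the difference of 1.54 FPKM in the deposited values. The mean difference of Cd44 over the sets was 4.30 FPKM (exact permutation within sets, p = 0.000813). For Tnfaip6 the differences were 0.347, 1.97, 0.897 and 0.593 FPKM (exact permutation, p = 0.00106), and for Has3 -0.0867, -0.12, -0.32 and -0.267 FPKM (exact permutation, p = 0.0039). Hyal2 had 0.237, 8.28, 4.33 and 2.01 FPKM (exact permutation, p = 0.0149), while Stab1 went from -3.6 in samples 1 to 3 to 14.4 in samples 4 to 6, with 6.26 and 3.78 in the others (exact permutation, p = 0.0201).

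**Figure D3:**
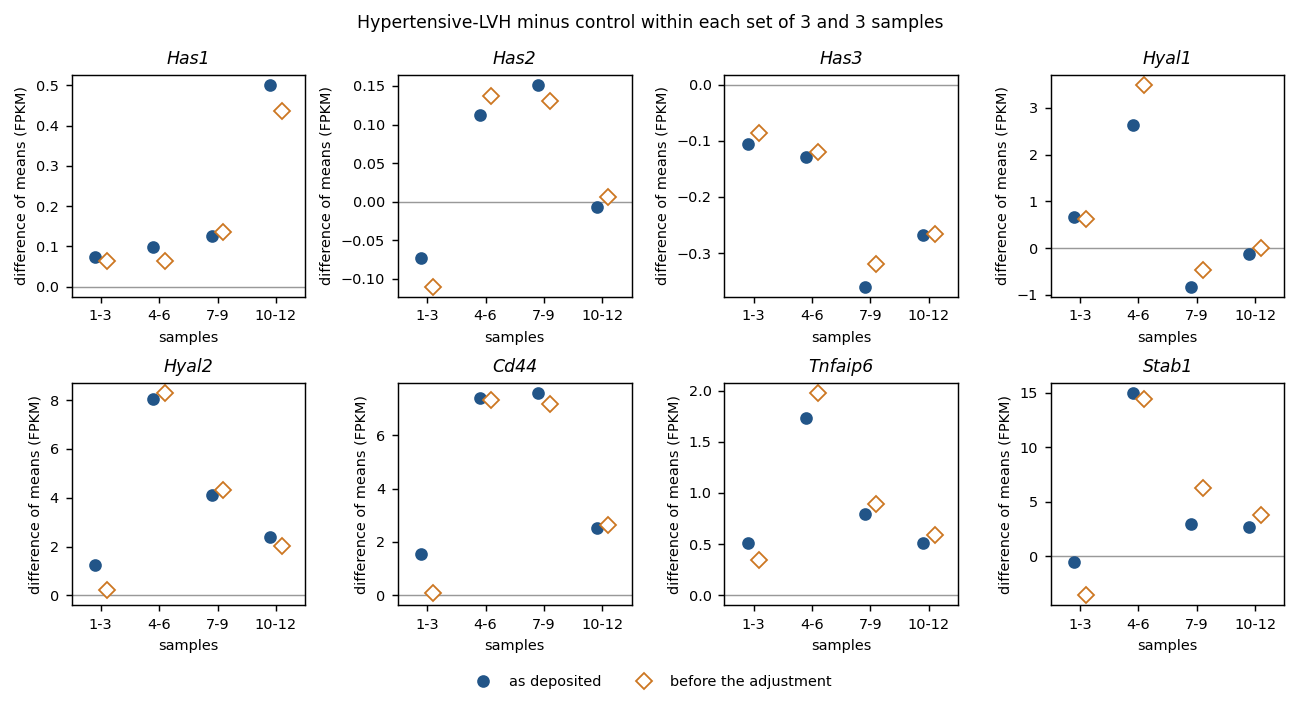
Difference of the group means in FPKM, hypertensive-LVH minus control (y axes, own scale for each gene), in each set of 3 and 3 mice (x axes), as deposited (filled circles) and before the adjustment (open diamonds). Has3 lies below 0 and Tnfaip6 above 0 in all 4 sets, and Cd44 is near 0 in samples 1 to 3 before the adjustment (0.09 FPKM).

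Markers of several cell types moved with the groups, and their part in the differences of the hyaluronan genes was not tested. Of 5 pan-leukocyte markers, 3 passed as higher, and their summed level was 38.4 to 91.1 FPKM in the control samples and 59.9 to 199 in the hypertensive-LVH samples. All 8 macrophage markers were higher, with sums of 169 to 374 against 231 to 689 FPKM, and 4 of 6 monocyte markers were, beside 20.9% of all genes tested. Among 7 markers of resident macrophages, 3 were higher and 1, Timd4, was lower (-0.45 ± 0.11, log2 fold change, SE; limma, adjusted p = 0.00213). Stromal markers moved as well, with 4 of 8 fibroblast markers (sums of 44.6 to 935 against 694 to 2389 FPKM) and 5 of 6 activated fibroblast markers higher. The lowest fibroblast sums were those of control samples 4 to 6, at 44.6 to 193 FPKM, while the 9 other control samples were at 772 to 935. Of the fibroblast list, Col1a1 and Col3a1 had 3 negative values each, as had Cthrc1, Ltbp2, Comp and Cilp of the activated list. Sums and counts that include such adjusted values are no measure of the number of fibroblasts. Without samples 4 to 6, 8.4% of all genes tested passed as higher. In that fit 1 of 8 macrophage, 1 of 6 monocyte, 2 of 5 pan-leukocyte, 2 of 8 fibroblast and 1 of 6 activated fibroblast markers did. The median log2 fold change of the fibroblast list went from 0.77 to 0.17. Endothelial markers were divided, with 1 of 6 higher and 1 lower, beside 20.9% and 12.6% of all genes tested. Their sums were 311 to 404 FPKM in the control group against 293 to 472 in the hypertensive-LVH group. No gene of these lists was under 0.1 FPKM in every sample.

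The remaining lists were small or mixed, apart from the blood and muscle markers. For lymphatic endothelium 3 of 5 markers were higher, for smooth muscle and pericytes 2 of 5, for T cells 1 of 5 and for neutrophils 1 of 5. Of all genes tested 20.9% passed as higher, so the T cell and neutrophil counts were near that share. Of 5 mesothelial markers 0 passed by limma in either direction. All 5 red blood cell markers were higher, from 56.2 to 2949 FPKM summed in the control group to 779 to 6443 in the hypertensive-LVH group. Cardiomyocyte markers went the other way, with 3 of 6 lower and 0 higher, beside 12.6% and 20.9% of all genes tested. Their sums were 39350 to 49390 FPKM in the control group against 29300 to 42610 in the hypertensive-LVH group.

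Some of the 8 genes followed these markers within the groups. With the group means removed, Pearson's r over the 24 samples, taken between log2(FPKM + 1) of the gene and of the summed markers, was compared for 6 lists. For Cd44 it ran from 0.50 with the endothelial to 0.70 with the macrophage markers, and for Stab1 from 0.62 with the activated fibroblast to 0.74 with the macrophage markers. Tnfaip6 ran from 0.24 with the endothelial markers to 0.66 with the fibroblast and with the resident macrophage markers. Hyal2 ran from 0.25 with the resident macrophage to 0.72 with the endothelial markers, and Hyal1 from 0.35 with the macrophage to 0.74 with the activated fibroblast markers. Among the synthases, r was 0.20 to 0.58 for Has2, -0.24 to 0.48 for Has3 and -0.11 to 0.04 for Has1. Several lists had nearly equal values for a gene, so no gene is tied to a single cell type by them. The samples share sets and sequencing depth with the markers, so these values are descriptions.

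**Figure D4:**
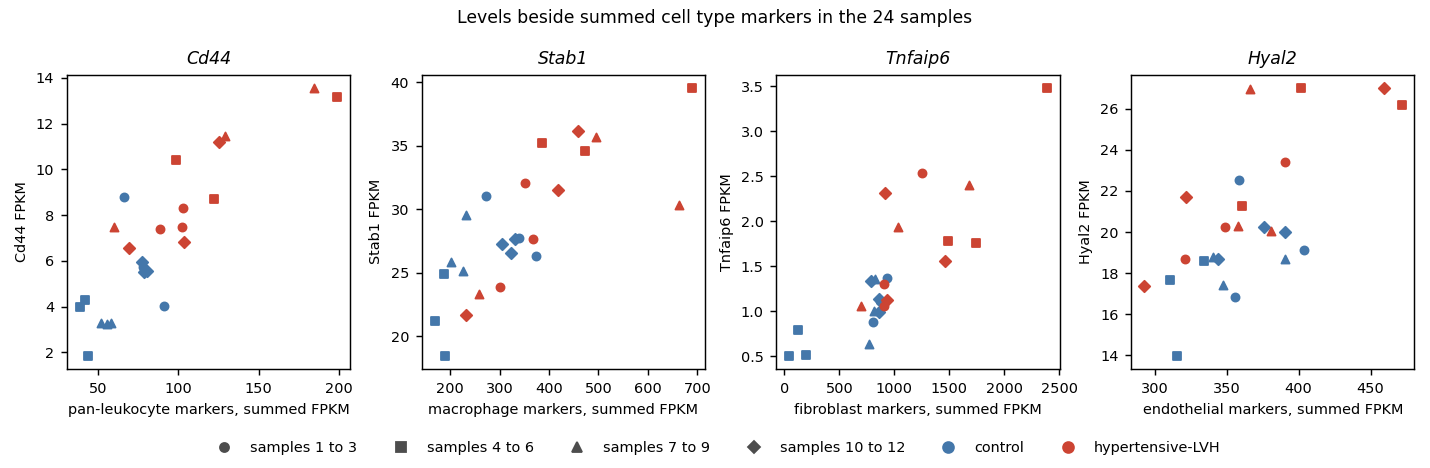
Level of Cd44, Stab1, Tnfaip6 and Hyal2 in FPKM (y axes) against the summed FPKM of a list of cell type markers (x axes) in the 24 samples, coloured by group and shaped by set. The control samples 4 to 6 have the lowest fibroblast sums and Tnfaip6 levels of 0.508 to 0.798 FPKM, with control sample 8 at 0.642. The highest Tnfaip6 value (3.48 FPKM) has the highest fibroblast sum (2389 FPKM).

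The hyaluronan genes also varied together to different degrees. With group means removed, the highest of the 28 pairwise r values over the 24 samples was 0.74 for Hyal2 and Stab1, followed by 0.64 for Hyal1 and Stab1, 0.64 for Has2 and Cd44 and 0.58 for Cd44 and Tnfaip6. With the means of the sets removed too, Hyal2 and Stab1 stood at 0.66, followed by Hyal1 and Cd44 at 0.50 and by Cd44 and Tnfaip6 at 0.49, and Hyal1 and Stab1 as well as Has2 and Cd44 were at 0.47. The r values that follow have only the group means removed. Has1 and Has3 had an r of -0.24. Over the whole table, the 3 genes most like Cd44 by this measure were Ncam1 (r = 0.92), Mpp1 and Morf4l2 (0.87 and 0.86), and those most like Tnfaip6 were Emb (0.89), Tmem50a (0.87) and Rnase4 (0.86). Stab1 was most like A4galt (0.94), Trpv2 (0.93) and Txndc5 (0.92), Hyal2 most like Ormdl3 (0.92), Tmem184b (0.89) and Atf6b (0.87), and Hyal1 most like Pkd1 (0.92), Robo1 (0.91) and Tenm3 (0.90). The synthases had lower values, up to 0.75 for Has1 with Gabarapl1, 0.76 for Has2 with Vsig10l and 0.74 for Has3 with Tex2. Each is the largest of the values over all other genes tested.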

How the data were processed

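Left ventricles of 12 hypertensive-LVH and 12 control mice were analysed, grouped by the labels, of the 16 per group in the study. The authors deposited 1 value per gene and sample, called FPKM, and the submitters' processing notes name Bowtie2, HISAT and RSEM without roles or versions. The build is not given in the sources used here. Because 2741 values were negative, the deposited values were treated as an adjusted score on the FPKM scale and not as plain FPKM. No counts were used, so depth is unknown and no counting intervals are given.

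Values below 0 were replaced by 0, and log2(FPKM + 1) of genes with a mean of at least 0.1 was fitted with limma 3.58.1 (R 4.3.3, intensity trend, group only, Benjamini-Hochberg over 14026 genes). An adjusted p under 0.05 was a call, and DEGs also had an absolute log2 fold change over 0.5. Means, SD and the two-sided exact permutation tests (160000 relabelings within sets, 8000 without samples 4 to 6) used deposited values. Exact means that all relabelings were counted. The p values from deposited values are approximate, because the recovered adjustment kept a group difference. Ties of at least 100 genes defined the triplets of a group, and a step shared by their values joined triplets of both groups into sets. Values before the adjustment were searched for on a step of 0.01 FPKM with a tolerance of 0.001 hundredths, which gave a single solution for all 8 genes. On data simulated with the same form of adjustment that the recovery assumes, 197 of 200 genes were recovered. Of 200 random genes without a step of 0.01 FPKM, 0 gave a solution. These checks cannot show how often a wrong group difference would be found, or what another form of adjustment would give. Python 3.11.15, numpy 2.4.6, pandas 2.3.3 and scipy 1.17.1 were used.

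The 8 genes and all lists were chosen with earlier results of these data known. Named genes were the 8 genes, up to 3 DEGs of a list with the largest change, DEGs against a list's direction, and the 3 genes with the most similar pattern. Ugdh, Ugp2, Gusb, Hexa, Cemip, Lyve1, Vcan, Acan, Itih2, Itih3, Ptx3, Stab2 and Timd4 were named after their values were seen. DEGs of the marker lists are given as counts of calls. A gene of the breakdown list is not reported here and is in none of its counts. Positions are from GENCODE vM21. Samples are biological replicates according to the methods of the study. Deviations of same-numbered samples of the groups had correlations below 0, which cannot decide on pairing after an adjustment within sets. Alternatives were other pseudocounts, filters, scalings and tests, the replicate number or the set as a term, and leaving out mice or sets. The recovered values, the fits of the lists without samples 4 to 6 and the check of shared steps were added after the data were seen.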

Additional observations from a re-analysis of the deposited data

Results flagged for a closer look

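Hyal1 was singled out because its difference between the hypertensive-LVH and control groups differed between the 4 sets of mice (limma, group by set interaction, F = 6.31, adjusted p = 0.0480). In samples 4 to 6 its mean was 4.74 ± 1.08 FPKM in the hypertensive-LVH group and 2.11 ± 0.959 in the control group (SD, n = 3 each). In samples 7 to 9 the order was the other way, at 2.86 ± 0.529 and 3.68 ± 0.463 FPKM. Samples 1 to 3 (3.70 ± 1.20 and 3.03 ± 0.469) and 10 to 12 (3.21 ± 1.06 and 3.35 ± 0.151) lay between these. The groups of Hyal1 were apart in samples 4 to 6 only, where 47.6% of all genes tested were apart too. Before the adjustment the differences were 0.633, 3.50, -0.473 and 0.0 FPKM in the 4 sets in order. Of the 8 hyaluronan genes it was the 1 that passed this test, against 7.49% of all genes.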

How the results depend on the processing

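Cd44 and Tnfaip6 kept their direction and an adjusted p under 0.05 in all 24 fits without 1 mouse and in the 13 other fits, and Has3 and Hyal2 in all 24 and in 11 of 12 and 11 of 13. Cd44 was a DEG in all of them and Tnfaip6 in 17 of 24 and 10 of 13. Leaving out 1 mouse, the log2 fold changes ran from 0.11 to 0.23 for Has1, 0.03 to 0.07 for Has2, -0.23 to -0.19 for Has3, 0.12 to 0.22 for Hyal1, 0.22 to 0.29 for Hyal2, 0.83 to 0.99 for Cd44, 0.45 to 0.55 for Tnfaip6 and 0.19 to 0.28 for Stab1, and the number of DEGs from 715 to 979 (831 with all mice). The adjusted p of Stab1 passed without control sample 2 (0.0338) or 9 (0.0448) or hypertensive-LVH sample 3 (0.0288), 9 (0.0242) or 12 (0.0163), at a mean of at least 1 (0.23, adjusted p = 0.0489) and without samples 1 to 3 (0.32, adjusted p = 0.0323). The DEGs numbered 1489 with a pseudocount of 0.1 and 553 without samples 4 to 6. That pseudocount also made Has3 a DEG (-0.56, adjusted p = 0.00482) and brought the interaction of Cd44 past the threshold (F = 6.16, adjusted p = 0.0469). The log2 fold change of Has2 turned to -0.00969 after quantile normalization, which moved the median of all genes from 0.05 to -0.02. Without samples 7 to 9 that of Has3 was -0.16 (adjusted p = 0.0535). Without samples 4 to 6, Hyal2 had a log2 fold change of 0.16 (adjusted p = 0.144) and a difference of 2.59 FPKM (exact permutation, p = 0.0745), or 2.19 before the adjustment (p = 0.162, exact permutation), and Stab1 a difference of 1.69 FPKM (exact permutation, p = 0.415), or 2.14 before the adjustment (p = 0.313, exact permutation). In the same setting Hyal1 turned to -0.0521 (adjusted p = 0.756) and -0.0947 FPKM (exact permutation, p = 0.802), with an interaction of F = 1.77 (adjusted p = 0.869). Causes of these changes, the smaller number of samples among them, were not tested. With the replicate number as a block, the replicate block fit gave Hyal2 a log2 fold change of 0.26 with an adjusted p of 0.0543, called 2824 genes in place of 4697 and gave 715 DEGs. The correlations of the 12 same-numbered pairs were -0.557 to -0.00109, 0 of them over 0.1, and 0 samples correlated best with their own number. Same-numbered samples were adjusted in the same set, which can itself push these correlations below 0, so they cannot decide whether the numbers mark pairs. The numbers were not read as pairing because the study names no pairs. DEGs split 634 higher and 197 lower, against 458 and 275 after quantile normalization and 536 and 278 after median-ratio scaling. The unknown depth limits what can be said of the synthases, whose highest level was 1.44 FPKM.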
